A study of Mus musculus with 6 samples.

Results

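Sulfide and cysteine oxidation was described here through 6 enzymes, Ethe1, Tst, Mpst, Suox, Cdo1 and Csad, in liver tumors of WT mice and of mice lacking the mitochondrial topoisomerase TOP1MT (Top1mt-KO, genotype Top1mt -/-). The enzymes were chosen by gene symbol, with the higher Ethe1 values of the KO tumors already known, and all 6 were found among the 30236 genes of the expression table. The question was whether the difference of Ethe1 was shared by the other enzymes of the route. Because the choice used the KO against WT contrast, the values of the 6 enzymes are given as a description and carry no p-value. RNA was sequenced from 3 tumors of male C57BL/6 WT mice and 3 of male C57BL/6 Top1mt-KO mice, germline knockouts bred from heterozygotes. Both genotypes had received the carcinogen diethylnitrosamine on postnatal day 14. Repeated carbon tetrachloride, a hepatotoxin, followed from the age of 8 weeks over 14 weeks, and the mice were killed at 22 weeks. Untreated liver was not analysed here. The study calls the 3 tumors of a genotype independent. Whether they came from separate mice is not given in the sources used here. The p-values below therefore measure the spread between these tumor libraries, which may not be the spread between mice.

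Hydrogen sulfide is a signaling gas made from cysteine that poisons cytochrome c oxidase when it accumulates, and mitochondria clear it. Sulfide quinone oxidoreductase (Sqor) passes the electrons of sulfide to coenzyme Q and leaves the sulfur as a persulfide, usually on glutathione. ETHE1 oxidizes that persulfide to sulfite, SUOX oxidizes sulfite to sulfate, and TST moves persulfide sulfur between small molecules, among them thiosulfate. MPST releases sulfur from mercaptopyruvate, a product of cysteine. Cysteine can also be oxidized directly: CDO1 turns it into cysteine sulfinate, which CSAD decarboxylates on the way to taurine, the amino acid that liver joins to bile acids.

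Expression is given on the authors' log2 scale, normalized between libraries, and the 3 values of a genotype are listed in the order of replicates 1, 2 and 3. This scale keeps no read totals, and sequencing depth is unknown. Hepatocyte transcripts were high in every library, with Alb (albumin) between 20.3 and 21.1. The targeted gene only partly followed the labels. Top1mt was between 5.99 and 8.01 in the libraries labelled WT and between 5.58 and 6.41 in those labelled KO, and the library labelled WT replicate 2, at 5.99, lay below 2 of the 3 labelled KO. All directions below rest on the labels. Hierarchical clustering over the genes tested put KO replicate 1 with WT replicate 2, apart from the other 4 libraries. In KO replicate 1 a single noncoding transcript, Gm42418, took 17.7% of the values summed on the linear scale, against at most 0.387% elsewhere. Lars2 was also far higher in that library, at 20.1 against 8.44 to 12.7 in the others.

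Ethe1, the persulfide dioxygenase, was higher in every KO tumor than in any WT tumor. Its log2 expression was 8.66, 8.68 and 8.19 in the WT libraries against 9.14, 9.46 and 9.19 in the KO libraries. The lowest KO value exceeded the highest WT value by 0.45. The WT mean was 8.51 ± 0.28 and the KO mean 9.26 ± 0.17 (SD, n = 3 each). The KO minus WT difference was 0.75 on the log2 scale with a standard error of 0.18, or 1.68-fold. A difference at least as large in either direction was present in 9.53% of the 22677 genes tested. Leaving out each library in turn gave differences from 0.59, without WT replicate 3, to 0.83, without WT replicate 2. Without the WT replicate 2 and KO replicate 1 libraries together it was 0.90.

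**Figure D1:**
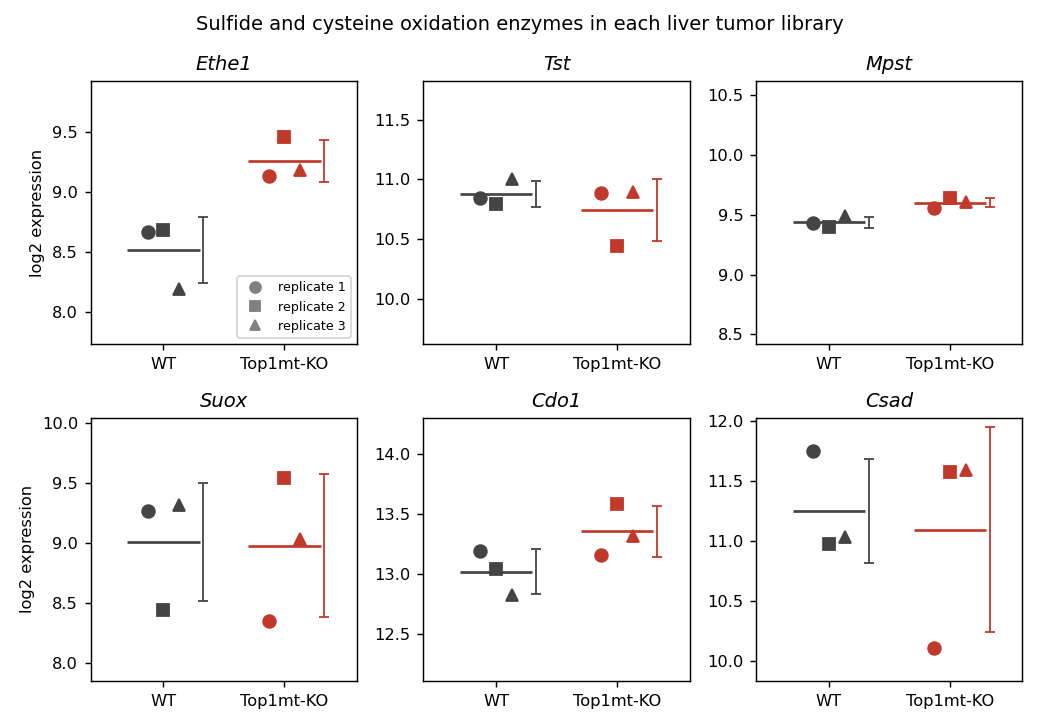
Log2 expression of each of the 6 enzymes (vertical axis, the same span in every panel) in the 3 WT (grey) and 3 Top1mt-KO (red) liver tumor libraries. Marker shapes give the replicate, horizontal lines the means and bars the SD. The Ethe1 values of KO (9.14 to 9.46) all lie above those of WT (8.19 to 8.68), the Mpst groups are separated by 0.071, and the other 4 enzymes overlap.

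Ethe1 (ENSMUSG00000064254) lies on the plus strand of chromosome 7 (24587543 to 24608925, GENCODE M21 on GRCm38). Its first 99 bases overlap the start of Zfp575, a zinc finger gene on the opposite strand. Zfp575 was between -1.35 and -1.22 in the 6 libraries, below the filter on low values at -0.889. Phldb3, the next gene downstream on the same strand, averaged 7.16 ± 0.24 for WT and 7.37 ± 0.55 for KO (SD, n = 3 each), with overlapping groups. The stretch before the Ethe1 start that lies in no annotated exon is shown because Ethe1 carries the largest difference of the 6 enzymes. It is chr7:24587293-24587450 on the plus strand (GRCm38.p6, from RefSeq's promoter windows), 158 bases that end 92 bases before the gene start, with a GC content of 55.7%. Capitals mark a CCAAT box.
Ethe1 upstream: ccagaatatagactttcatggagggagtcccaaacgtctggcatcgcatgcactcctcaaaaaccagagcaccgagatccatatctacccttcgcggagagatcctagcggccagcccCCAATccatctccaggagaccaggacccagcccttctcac
Windows of 300 bases around the start were listed for 4 of the 6 enzymes (8 windows in all, for Ethe1, Mpst, Suox and Csad). They were searched on both strands for CACGTG, the E-box that CLOCK binds, for TGATGNAAT, an ATF4 element, for TGACNNNGC, the antioxidant response element that NRF2 binds, and for CCAAT and GGGCGG, 2 common promoter boxes, with matches counted even where they overlapped one another. The E-box was found in 0 of the 8 windows and in 7.15% of all 32851 windows of this length. The ATF4 element was in 0 of 8 and in 0.965% of all windows. The antioxidant response element was in 1 of 8, a window of Mpst, and in 12.4% of all windows. CCAAT was in 3 of 8 (37.4% of all) and GGGCGG in 4 of 8 (35.7% of all). These are letter matches only.

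The direction of the other 5 enzymes as a group depended on single libraries. With all libraries their KO minus WT differences ran from -0.16 to 0.34, with 2 higher and 3 lower and a median of -0.030, beside a median of -0.015 over all genes tested. Without KO replicate 1, the library with the large Gm42418 share, 4 of the 5 were higher, all but Tst, with a median of 0.28 beside -0.018 over all genes. Leaving out WT replicate 1 also left 4 of 5 higher, with a median of 0.10, whereas leaving out WT replicate 2 left 2 of 5 higher, with a median of -0.18. Without WT replicate 2 and KO replicate 1 together, 3 of 5 were higher, with a median of 0.17. Of the 6 enzymes 2, Ethe1 and Mpst, had groups that did not overlap, both higher in KO. Over all genes tested 8.28% did not overlap in either direction, 3.95% higher in KO and 4.33% lower, and nothing is read from the count for the enzymes because they were chosen on this contrast. By limma 0 of the 22677 genes (0%) passed an adjusted p under 0.05, and 985 genes (4.34%) had an unadjusted p under 0.05. These counts describe the whole table, and no p-value is read for the 6 enzymes.

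**Figure D2:**
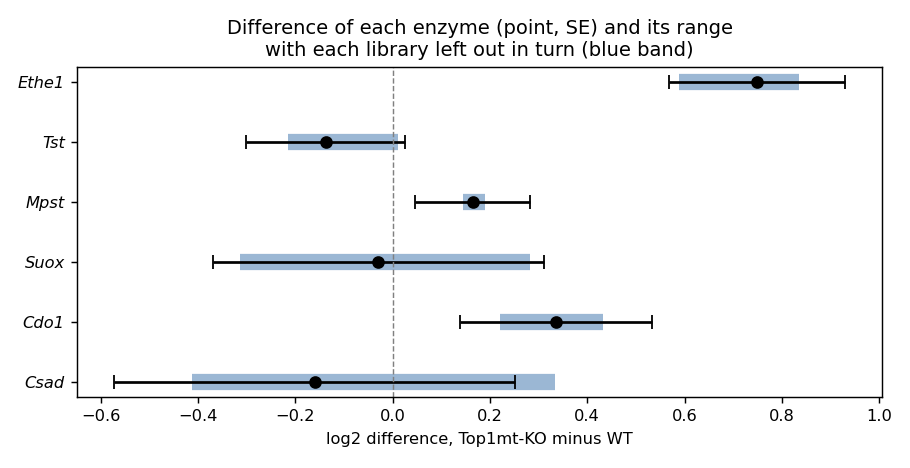
KO minus WT difference in log2 expression (horizontal axis) of each enzyme, with points at the difference, black bars for the standard error from limma and blue bands for the range when each of the 6 libraries is left out in turn. The Ethe1 band runs from 0.59 to 0.83 and those of Mpst and Cdo1 also stay above 0, whereas those of Tst, Suox and Csad cross it.

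Suox and Tst, which act after or beside Ethe1, were not higher in KO over all libraries. Suox (ENSMUSG00000049858, chromosome 10, 128669894 to 128674073, minus strand, GENCODE M21 on GRCm38) encodes the molybdenum enzyme of the intermembrane space that makes sulfate. It was 9.27, 8.44 and 9.31 in the WT libraries against 8.35, 9.54 and 9.04 in the KO libraries. The groups covered nearly the same range, the low values being WT replicate 2 and KO replicate 1, the libraries that cluster together. The WT mean was 9.01 ± 0.49 and the KO mean 8.98 ± 0.60 (SD, n = 3 each), a difference of -0.030 (standard error 0.34). Leaving out KO replicate 1 gave 0.28, and leaving out WT replicate 2 gave -0.31. Without both of them it was -0.0024. Tst, the mitochondrial rhodanese, was 10.8, 10.8 and 11.0 in the WT libraries against 10.9, 10.4 and 10.9 in the KO libraries. KO replicate 2 was the low library and the other 5 lay close together. The means were 10.9 ± 0.11 and 10.7 ± 0.26 (SD, n = 3 each), a difference of -0.14 (standard error 0.16), and 0.012 without KO replicate 2.

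Mpst, which shares its fold and ancestry with Tst, was the steadiest of the 6 enzymes. It was 9.43, 9.40 and 9.49 in the WT libraries against 9.56, 9.64 and 9.61 in the KO libraries. The groups did not overlap, but the gap between them was 0.071. The means were 9.44 ± 0.046 and 9.60 ± 0.041 (SD, n = 3 each), a difference of 0.16 or 1.12-fold. The spread within groups was 0.043, at the 0.661 percentile of the 4083 genes tested whose mean lay within 1 log2 unit of it. The standard error by limma, 0.12, is larger than this spread gives, because limma draws each gene's variance toward that of genes of like level. With libraries centred on their medians the difference was 0.22. Compared within each library, Mpst minus Tst was -1.42, -1.40 and -1.52 in the WT libraries against -1.33, -0.81 and -1.29 in the KO libraries.

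Tst and Mpst (ENSMUSG00000044986 and ENSMUSG00000071711) stand head to head on chromosome 15, Tst on the minus strand (78399556 to 78405907) and Mpst on the plus strand (78406416 to 78414013), with 508 bases between their starts (GENCODE M21, GRCm38). Their coding sequences are paralogous, which matters for counting. Each is 894 bases long, 65.3% of 888 aligned bases are identical, and the longest run that both contain is 18 bases. The stretch around the codon of the catalytic cysteine, coding bases 712 to 786 of each (transcripts Tst-201 and Mpst-201), is shown because both enzymes carry sulfur on this cysteine, whose codon is in capitals.
Tst: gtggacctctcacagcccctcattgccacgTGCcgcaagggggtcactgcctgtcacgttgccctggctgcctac
Mpst: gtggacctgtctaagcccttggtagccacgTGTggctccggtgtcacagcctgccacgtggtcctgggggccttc
Of these 75 bases 55 are identical. Differing bases are spread along the window, and the authors kept uniquely mapped reads only.

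The enzymes of direct cysteine oxidation differed from one another in behavior. Cdo1, the cysteine dioxygenase and a main route of cysteine breakdown in liver, was 13.2, 13.0 and 12.8 in the WT libraries against 13.2, 13.6 and 13.3 in the KO libraries. The groups overlapped only through WT replicate 1 and KO replicate 1, where the lowest KO value minus the highest WT value was -0.031. The WT mean was 13.0 ± 0.18 and the KO mean 13.4 ± 0.21 (SD, n = 3 each), a difference of 0.34 (standard error 0.20) or 1.26-fold. It was between 0.22 and 0.43 with each library left out in turn. Leaving out WT replicate 1 or KO replicate 1 removes the overlap by construction, so nothing is read from that. The groups also did not overlap with libraries centred on their medians, a setting for which no share over all genes is given. Csad, which forms hypotaurine, was 11.8, 11.0 and 11.0 in the WT libraries against 10.1, 11.6 and 11.6 in the KO libraries. KO replicate 1 was far the lowest library, and the other KO libraries lay inside the WT range. The means were 11.3 ± 0.44 and 11.1 ± 0.86 (SD, n = 3 each), a difference of -0.16 (standard error 0.41), and 0.33 without KO replicate 1. Part of the Csad locus (chromosome 15, 102176999 to 102204724, minus strand, GENCODE M21 on GRCm38) overlaps Zfp740 on the opposite strand by 1476 bases. Zfp740 averaged 9.41 ± 0.077 for WT and 9.49 ± 0.34 for KO (SD, n = 3 each). It was lowest in KO replicate 1 too, at 9.10, and highest in KO replicate 2, at 9.74.

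**Figure D3:**
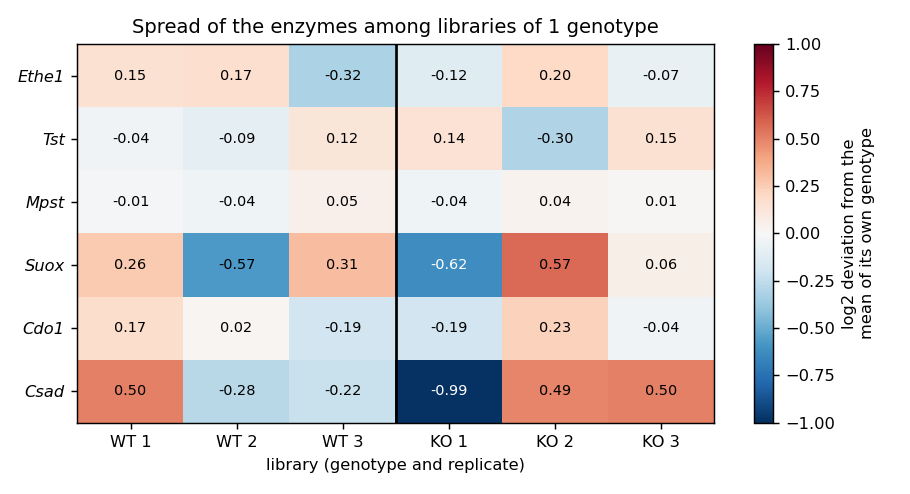
Deviation of each enzyme's log2 expression from the mean of its own genotype (color, red above and blue below) in each library (columns). Mpst deviates by at most 0.049, whereas Suox lies below its genotype mean in WT replicate 2 (-0.57) and KO replicate 1 (-0.62) and Csad deviates most in KO replicate 1 (-0.99).

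The enzymes differed in how widely they varied within a genotype. The spread within groups was 0.043 for Mpst, 0.20 for Tst and Cdo1, 0.23 for Ethe1, 0.55 for Suox and 0.68 for Csad. Against genes of like level, Suox stood at the 93.9 percentile of spread and Csad at the 96.2 percentile. The 2 aldehyde oxidases of the molybdenum enzyme list, named after their values were seen, were also lowest in WT replicate 2 among WT and KO replicate 1 among KO. Aox1 was 9.94 in WT replicate 2 against 11.4 and 11.3 in the other WT libraries, and 10.4 in KO replicate 1 against 11.6 and 10.5 in the other KO libraries. Aox3 was 11.3 in WT replicate 2 and 11.2 in KO replicate 1, its lowest values, and between 11.8 and 12.6 in the other 4 libraries. The gene with the profile nearest to Suox was Zfp28, at a mean absolute difference of 0.048 over the 6 centred libraries, and the nearest to Csad was P3h3, at 0.064.

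By the same measure the 5 genes most like Ethe1 were Egf, Gm26860, Mgat4b, Gm5529 and Car5b, at mean absolute differences of 0.10 to 0.12 over 6 libraries, where the median gene was at 0.46. Car5b encodes a mitochondrial carbonic anhydrase. It was 6.07, 6.28 and 5.65 in the WT libraries against 6.30, 7.05 and 6.73 in the KO libraries, with WT replicate 3 low as for Ethe1. None of the other 5 enzymes was among them, but so short a list out of 22677 genes leaves out almost any gene, so nothing is read from this. The nearest to Tst was Gm16552 (0.042) and to Cdo1 Zfp423 (0.020).

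Levels were compared between the enzymes per kilobase of annotated exon. In WT the mean log2 level per kilobase was 12.3 for Cdo1, 9.32 for Csad, 9.22 for Tst, 8.34 for Mpst, 7.94 for Ethe1 and 7.69 for Suox. Cdo1 stood far above the rest, at the 99.3 percentile of the genes tested by level before this correction, whereas Csad and Tst differed by less than their spread, as did Ethe1 and Suox. In KO the levels per kilobase were 12.6, 9.16, 9.08, 8.50, 8.69 and 7.66 in the same order of genes, so that Ethe1 stood above Mpst, by about its own SD of 0.17. The exon length of Tst includes a retained intron, which lowers its level on this scale.

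Sqor, the enzyme that feeds ETHE1, was not higher in KO. It was 11.5, 11.6 and 11.4 in the WT libraries against 11.5, 11.5 and 11.0 in the KO libraries. KO replicate 3 was the low library. Its difference was -0.19 (standard error 0.18, limma's adjusted p = 0.999). Leaving out KO replicate 3 gave -0.021. Within each library Ethe1 minus Sqor was -2.87, -2.89 and -3.20 in the WT libraries against -2.32, -2.05 and -1.78 in the KO libraries. These ratios did not overlap, which the choice of Ethe1 largely sets. The related rhodanese domain gene Tstd3 differed by 0.20 (limma's adjusted p = 0.999), and by -0.035 without KO replicate 1. Of the 3 genes of this list 1 was higher and 2 were lower, with a median of -0.049.

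The wider route was followed in 44 further genes, none of them among the 6 enzymes. By limma 0 of the 44 had an adjusted p under 0.05. At an unadjusted p under 0.05 there was 1 of 44, lower in KO, where all genes tested had 4.34% in either direction, 1.79% higher and 2.56% lower. Groups without overlap were found for 4 of the 44, 1 higher and 3 lower, against 8.28% of all genes tested. The median difference of the 44 genes was -0.025, with 20 higher and 24 lower.

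**Figure D4:**
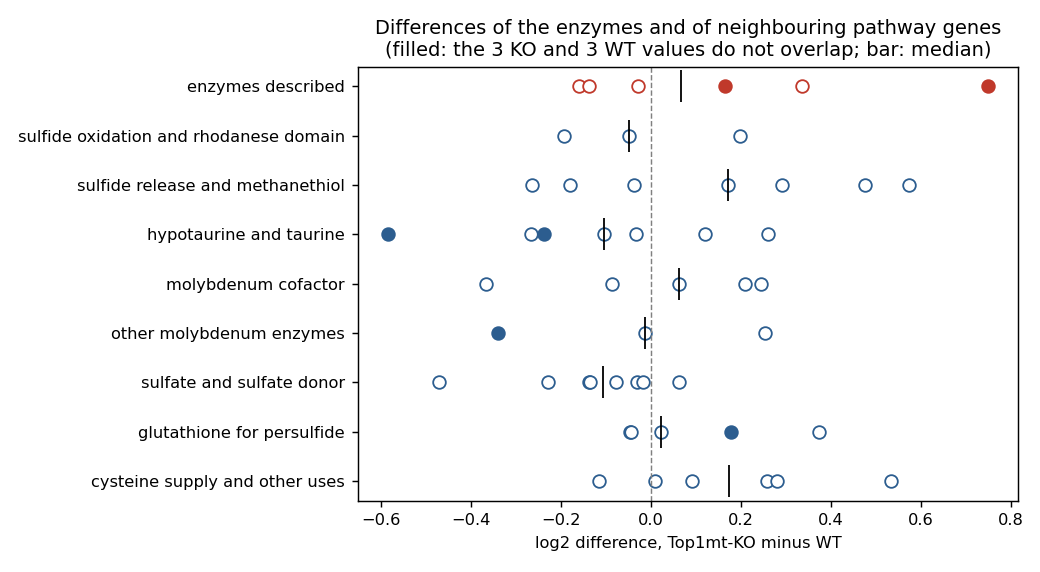
KO minus WT difference in log2 expression (horizontal axis) of the 6 enzymes (red) and of 44 neighbouring genes in 8 lists (blue), with filled points where the 3 KO and 3 WT values do not overlap and black bars at the list medians. Ethe1, at 0.75, is the rightmost point, and the neighbouring genes lie between -0.59 and 0.57.

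The genes listed for the release of sulfide and the handling of methanethiol showed no common direction. Cbs and Cth, which build cysteine from homocysteine and can release sulfide, differed by 0.47 (standard error 0.26) and -0.26 (standard error 0.23), each with limma's adjusted p = 0.999. Cbs differed by 0.25 without KO replicate 3 and by 0.26 without WT replicate 2. Cth differed by -0.099 without WT replicate 1, by -0.17 without WT replicate 3, by -0.16 without KO replicate 1 and by -0.52 without WT replicate 2. Kyat1, a kynurenine aminotransferase that can also act as a cysteine conjugate lyase, was 11.2, 11.3 and 11.1 in the WT libraries against 12.2, 11.0 and 12.2 in the KO libraries, and KO replicate 2 was the lowest of all 6 while the other KO libraries were the highest. Its difference was 0.57 (limma's adjusted p = 0.999). It was 0.97 without KO replicate 2, 0.37 without KO replicate 3 and 0.38 without KO replicate 1. Of the 7 genes of this list 4 were higher and 3 lower, with a median of 0.17, and 0 had an unadjusted p under 0.05.

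On the taurine side, 5 of 7 genes were lower in KO, with a median of -0.11 over the list, and the groups of 2 did not overlap. Of all 22677 genes tested 11860 were lower in KO, and 4.33% were lower without overlap. Slc6a6, the taurine transporter, was 11.5, 11.5 and 11.6 in the WT libraries against 11.4, 11.3 and 11.1 in the KO libraries. All KO values lay below all WT values, and the difference was -0.24 (standard error 0.13, limma's adjusted p = 0.999). Fmo5, a flavin monooxygenase related to the taurine-forming Fmo1, was 12.9, 12.4 and 12.5 in the WT libraries against 12.3, 12.4 and 11.4 in the KO libraries. It differed by -0.59 (standard error 0.28, limma's adjusted p = 0.999) with no overlap, and by -0.28 without KO replicate 3. Ado, which makes hypotaurine from cysteamine, differed by -0.11 (limma's adjusted p = 0.999), and by 0.013 without KO replicate 1. Gadl1, counted as lower at -0.034, and Gad1 lay near the bottom of the scale, between -0.96 and 0.64.

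SUOX needs the molybdenum cofactor, and the genes that make it showed no common difference, with 3 higher and 2 lower of 5 and 0 at an unadjusted p under 0.05. Mocs1, the first enzyme of its synthesis, averaged 10.1 ± 0.12 for WT and 9.99 ± 0.082 for KO (SD, n = 3 each), a difference of -0.088 (limma's adjusted p = 0.999), which was -0.021 without WT replicate 3 and -0.050 without KO replicate 2. Mocs3 differed by -0.37 (limma's adjusted p = 0.999), by -0.031 without KO replicate 1, by -0.12 without WT replicate 2, by -0.56 without KO replicate 2 and by 0.22 without WT replicate 2 and KO replicate 1. Among the other molybdenum enzymes Xdh, xanthine dehydrogenase, was 12.0, 11.5 and 12.0 in the WT libraries against 11.5, 11.4 and 11.5 in the KO libraries. Its groups did not overlap, but WT replicate 2, at 11.51, lay just above the highest KO value, 11.50, and the difference was -0.34 (standard error 0.17, limma's adjusted p = 0.999). Of the 3 molybdenum enzymes beside Suox 1 was higher and 2 were lower, with a median of -0.013.

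Of the 8 genes for sulfate transport and activation 7 were lower in KO, with a median of -0.11, where 11860 of all 22677 genes tested were lower. The 7 include Papss1 at -0.017 and Bpnt1 at -0.033. Slc26a2, a sulfate transporter, was 8.39, 8.78 and 8.68 in the WT libraries against 8.44, 8.14 and 7.85 in the KO libraries. KO replicate 1 lay above WT replicate 1, so the groups overlapped. The difference was -0.47 (standard error 0.20, limma's adjusted p = 0.999), and this was the 1 gene of the 44 with an unadjusted p under 0.05 (0.0427 by limma). That p was 0.0715 with the replicate block, 0.0941 with libraries centred on their medians and 0.0795 by limma without trend. It lay between 0.0843 and 0.139 by limma without WT replicate 2, WT replicate 3, KO replicate 2 or KO replicate 3. By limma it was 0.0467 with quantile normalization, 0.0136 without KO replicate 1 and 0.0308 without WT replicate 1. Without WT replicate 2 and KO replicate 1 together it was 0.0382 by limma. Of the 5 genes for glutathione 3 were higher and 2 lower, with a median of 0.022. Among them Slc25a39, which carries glutathione into mitochondria, was 11.9, 12.0 and 11.9 in the WT libraries against 12.0, 12.2 and 12.1 in the KO libraries, a difference of 0.18 without overlap (limma's adjusted p = 0.999). It is named because it was the only neighbouring gene higher in KO without overlap. Gclc, the rate-limiting enzyme of glutathione synthesis, differed by 0.37 (limma's adjusted p = 0.999), and by -0.057 without WT replicate 2. Of the 6 genes for cysteine supply and other uses 5 were higher and 1 lower, with a median of 0.17, where 10817 of all 22677 genes tested were higher. The 5 include Slc7a11 at 0.0076, with KO values between 5.12 and 9.82. Slc3a2, which joins the cystine and other amino acid transporters, differed by 0.53 (limma's adjusted p = 0.999), and by -0.0011 without KO replicate 3, which held its highest value, 10.6.

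In bulk tumors fewer cells of a type and less RNA per cell cannot be told apart, so the markers of other cells were read beside Ethe1, each list holding 5 genes that were all tested. The levels of each list were summed on the linear scale and are given as log2. The sum of the periportal hepatocyte markers was between 14.8 and 15.2 in WT and between 14.4 and 14.8 in KO without overlap. Pck1, by far the highest of the 5 genes, made up most of this sum and was the 1 lower in KO without overlap (-0.50). Sds and Gls2 differed by -0.39 and -0.38, and Cyp2f2 and Hal by 0.31 and 0.24, all with overlapping groups. The pericentral markers ranged from 14.1 to 15.1 in WT and from 13.1 to 14.2 in KO, with Oat (-1.18) and Slc1a2 (-2.19) lower without overlap. Cyp2e1 (-0.89), Glul (-0.77) and Cyp1a2 (-0.47) were lower too, with overlapping groups. Bile duct markers ranged from 11.6 to 12.6 in WT and from 11.7 to 12.6 in KO, a sum made up mostly of Spp1 (difference 0.045). Krt19 (-2.68) and Epcam (-1.19) were lower in KO without overlap. Krt7 differed by -2.20 and Sox9 by 0.15, both with overlapping groups. The hepatocyte, stellate, macrophage, endothelial and lymphocyte sums overlapped, with Ttr and Pecam1 higher and Cd3e lower without overlap. Over all genes tested 8.28% did not overlap in either direction. No defining marker was at the bottom of the scale, the lowest being Cd3e with a mean of 2.28. The part of these cell types in the Ethe1 difference was not tested.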

How the data were processed

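RNA-seq of 3 liver tumors of each genotype, WT and Top1mt-KO, was used, with groups from the sample labels. The deposited values are log2 expression by gene symbol. The authors trimmed reads with Trimmomatic 0.36, counted uniquely mapped reads with featureCounts (Subread) and ran the authors' own comparison in DESeq2. The submitters' processing notes name STAR 2.5.1 and GRCm38, whereas the paper names BWA and Mm 8. The log2 transform, and the strand setting of the counting, are not given in the sources used here. Low values appear drawn toward their mean, so fold changes of weak genes are understated. The table's 3 unnamed columns were not used.

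The KO against WT contrast was fitted in limma 3.58.1 under R 4.3.3 (lmFit, eBayes with trend) on the 22677 genes above the lowest 25% by mean, with Benjamini-Hochberg adjustment and a threshold of 0.05. The procedure was checked on simulated data. Exon lengths and coordinates came from GENCODE M21, promoters from RefSeq, and coding sequences were aligned with Biopython 1.88. Of 47 neighbouring genes listed 44 were tested. Tstd1 was not analysed here, nor were Marc1 and Marc2, whose symbols a spreadsheet turns into dates. Named neighbours are those with an unadjusted p under 0.05, the largest difference of each list, and Sqor, Cbs, Cth, Ado, Mocs1 and Slc6a6. Genes most like an enzyme had the smallest mean absolute difference of centred log2 values. The enzymes, lists and tests were chosen with earlier results of these data known.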

Additional observations from a re-analysis of the deposited data

How the results depend on the processing

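The Ethe1, Mpst and Cdo1 differences kept their direction under all alternatives run that could change them (quantile normalization, median centring and leaving out libraries). They ran from 0.59 to 0.83, from 0.14 to 0.19 and from 0.22 to 0.43 when 1 library was left out. Mpst moved to 0.22 with libraries centred on their medians. Tst ran from -0.22 to 0.012, Suox from -0.31 to 0.28 and Csad from -0.41 to 0.33. Genes with an adjusted p under 0.05 by limma numbered 4 with no filter on low values, and 0 to 1 when each library was left out in turn, the 1 being without KO replicate 1. At an unadjusted p under 0.05 there were 590 with a filter at the median, where fewer genes were tested. Of the 44 neighbouring genes 1, Slc26a2, had an unadjusted p under 0.05. The count was 2 with quantile normalization, 0 with median centring, 0 for limma without trend, 0 with the replicate block, from 0 to 4 with one library left out (4 without KO replicate 1, 3 without KO replicate 2, 2 without WT replicate 2, 0 without WT replicate 3 or KO replicate 3), and 5 without WT replicate 2 and KO replicate 1, an alternative added after seeing the data. The causes were not tested. The 14 named neighbours kept their direction in all but 7 of 182 refits, and none passed an adjusted p of 0.05 by limma (smallest 0.581). The filter settings, limma without trend and the replicate block leave a difference unchanged by construction, so only the other refits could reverse it. With one library left out Tstd3 ran from -0.035 to 0.45, Ado from -0.20 to 0.013, Gclc from -0.057 to 0.76 and Slc3a2 from -0.0011 to 1.1. The other reversed values were -0.11 (Tstd3), 0.044 (Ado) and 0.22 (Mocs3) without WT replicate 2 and KO replicate 1. Because each replicate number held a WT and a KO library, the replicate block could not change the 6 differences. Same-numbered libraries did not deviate together (correlations -0.123, -0.0759 and 0.0520) and were not treated as pairs. The overlap of groups has no test, and no block applies to it. Depth is unknown.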
